A study of Mus musculus with 8 samples.

Results

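Cytochrome P450 genes encode a superfamily of haem-containing oxidases. The set described here was every probe set (a group of short probes that reads 1 transcript) whose only gene symbol begins with Cyp and a family number, leaving out Cyp51, which belongs to cholesterol synthesis. Of 22690 probe sets on the array, 82 carried a P450 symbol, of which 4 carried several symbols and 3 read Cyp51. The remaining 75 probe sets read 62 genes. A filter on low signals (a mean of at least 38.84 over the arrays) left 33 probe sets of 27 genes for testing, and the other 42 were too dim. Just outside the filter lay Cyp3a44 with a mean signal of 38.3 and Cyp2b9 with 34.9, and just inside it lay Cyp7b1 (1421075_s_at) with 42.4 and Cyp39a1 with 50.2.

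The tissue was small intestine of female C57/Black6 mice aged 6 weeks, and every mouse received an intraperitoneal injection on each of 5 days. Vehicle mice received DMSO alone, dexamethasone mice 15 mg/kg of that synthetic glucocorticoid, and DBZ mice 10 umol/kg of DBZ, an inhibitor of gamma-secretase. The combination group received both agents at the same doses. Gamma-secretase cuts Notch receptors into their active form, and the series asks how its inhibition and a glucocorticoid act together. The labels list 2 samples in each of 4 groups and do not say which segment of the small intestine was taken. The pair of DBZ columns held the same values in all but 6 probe sets, none of them a P450, and was counted as 1 array, so that 7 distinct arrays remained and the DBZ group has no spread of its own.

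P450 enzymes insert oxygen into lipophilic substrates, with electrons passed to them by reductases and cytochrome b5 or, in mitochondria, by ferredoxin. Families Cyp1 to Cyp3 mainly clear drugs and dietary chemicals and are switched on by the aryl hydrocarbon receptor, PXR (Nr1i2) and CAR (Nr1i3), whereas Cyp4 enzymes hydroxylate fatty acids and the higher-numbered families handle sterols, steroids, retinoids and vitamin D. In the small intestine the drug-clearing P450s sit in villus enterocytes and are known to be more abundant in the proximal than in the distal gut. In mouse liver, dexamethasone at high doses is a textbook inducer of Cyp3a genes through PXR.

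Signals were scaled to a common trimmed mean of 250 before any comparison, because the vehicle arrays had been deposited at a trimmed mean of 499.9 and all others at 250. The vehicle arrays stood somewhat apart, with Spearman correlations of 0.925 to 0.94 with treated arrays against 0.94 to 0.959 between treated groups. They also differed in markers of position along the gut. Fabp6, the ileal bile acid binding protein, read 0.640 and 1.22 in vehicle, which is background. It read 3326 and 10019 after dexamethasone, 11873 after DBZ, and 1190 and 1117 when both agents were given. The summed signal of 9 proximal intestine markers was 26031 and 28129 in vehicle, 14393 and 13673 with dexamethasone, 19228 with DBZ, and 21961 and 25305 in the combination group. Enterocyte markers summed to 42295 to 43773 in vehicle and 35143 to 56145 in treated arrays, with list medians of -0.05, 0.26 and 0.22 (log2) for dexamethasone, DBZ and the combination against vehicle. The 3′ to 5′ signal ratios, a sign of RNA degradation, were highest in the DBZ array (1.80 for Gapdh and 2.17 for Actb, against 0.905 to 1.22 and 1.22 to 1.79 elsewhere). All tests used limma on log2(signal + 12.33), adjusted by Benjamini-Hochberg over 13638 probe sets, with "rose" and "fell" kept for an adjusted p under 0.05. These p-values measure the spread between arrays.

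**Figure D1:**
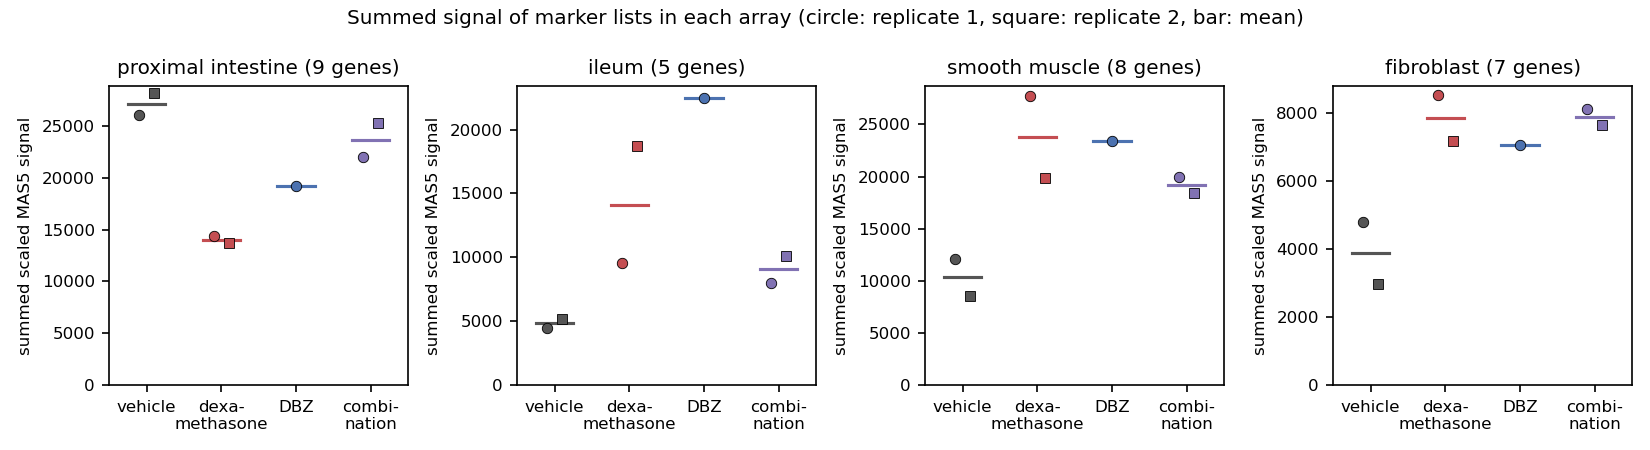
Summed scaled signal (linear axis) of the proximal intestine, ileum, smooth muscle and fibroblast marker lists in each array by treatment group; circles are replicate 1 (and the single DBZ array), squares replicate 2, bars the group mean. Proximal markers were lowest in the dexamethasone arrays (13673 and 14393) and ileal markers lowest in the vehicle arrays (4463 and 5196).

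With dexamethasone, 15 of 33 P450 probe sets, reading 13 genes, fell against vehicle and 0 rose. An unadjusted limma p under 0.05 was found for 23 P450 probe sets, and for 3665 of all 13638 probe sets. Over all probe sets tested, 12.0% passed in either direction, 4.82% lower and 7.22% higher. The median log2 change of the P450 probe sets was -0.48 against 0.02 over all probe sets. Families Cyp2 and Cyp3 held 13 of the 15. DBZ alone gave 5 calls, 4 lower and 1 higher, where 8.35% of all probe sets passed (4.60% lower and 3.75% higher), with a median of -0.21 against -0.05. The combination gave 7, of which 5 fell and 2 rose, where 7.44% passed in all (3.06% lower and 4.38% higher), with a median of -0.27 against -0.04. Cyp7b1, a higher call in both, passed the filter only through its treated arrays. No DBZ call, and of the combination calls only that of Cyp2c29, held in every fit with 1 array left out. The signals as deposited put the median over the whole array at -0.92, -0.999 and -0.99 for dexamethasone, DBZ and the combination. There the P450 calls were 23 lower and 0 higher, 23 and 0, and 24 and 0, where 73.1%, 67.7% and 78.5% of all probe sets were called lower, so these counts are near the background. Of 37 calls over all comparisons, 36 kept their direction on those signals. That scaling lowers changes against vehicle and raises interactions (a median of 0.95 over all probe sets). Falls against vehicle and positive interactions could therefore hardly turn. Rises against vehicle could, and that of Cyp4b1 did. In all, 17 probe sets of 15 genes were called in at least 1 comparison and 16 in none.

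**Figure D2:**
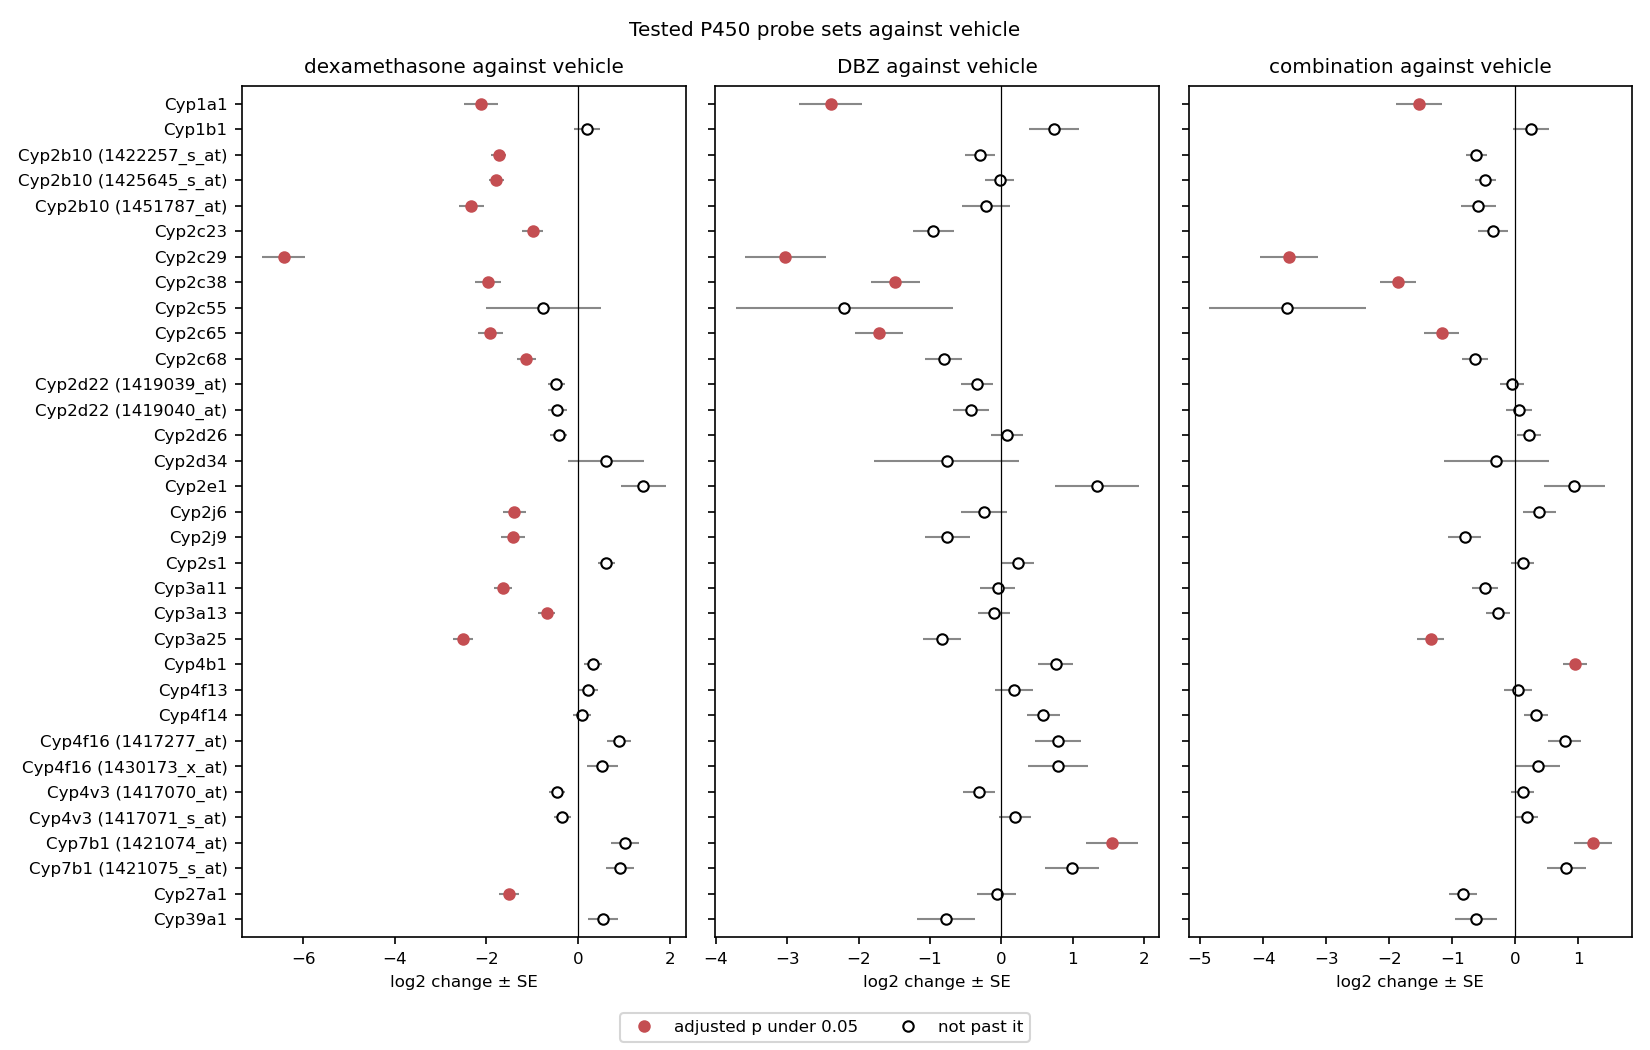
log2 change ± SE against vehicle (horizontal axis, scale differs by panel) of the 33 tested P450 probe sets, ordered by family, for dexamethasone, DBZ and the combination; filled points have an adjusted p under 0.05. Filled points number 15, 5 and 7, and the Cyp4 and Cyp7b1 probe sets lie mostly to the right of 0 (on the signals as deposited 0 of 7 Cyp4 probe sets do) while Cyp2c, Cyp2b10, Cyp2j and Cyp3a lie mostly to the left.

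Cyp3a enzymes clear a wide range of drugs and steroids, and all 3 of the tested members fell with dexamethasone. Cyp3a11, the main Cyp3a enzyme of mouse gut and liver, read 7852 and 9118 in vehicle mice and 2295 and 3170 with dexamethasone. It read 8180 with DBZ, and 5932 and 6195 in the combination group. Both dexamethasone arrays lay below every other array, the DBZ array lay between the vehicle arrays, and the combination arrays lay between the dexamethasone and vehicle levels. The change with dexamethasone was -1.65 ± 0.20 on the log2 scale (3.13-fold lower, limma adjusted p = 0.00145). With DBZ it was -0.05 ± 0.25 and with the combination -0.48 ± 0.20, neither past the threshold (adjusted p = 0.924 and 0.177).

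Cyp3a25, the gene next to Cyp3a11 on chromosome 5, had signals of 4561 and 5528 in vehicle, 1033 and 740 with dexamethasone, 2805 with DBZ, and 2268 and 1711 in the combination group. No 2 of these groups overlapped. The gene fell by 2.51 ± 0.22 with dexamethasone (5.68-fold, limma adjusted p = 0.000405) and by 1.34 ± 0.22 with the combination (adjusted p = 0.0078); without vehicle replicate 2 or combination replicate 2 the adjusted p of the latter was 0.0518 or 0.0749. DBZ alone gave -0.84 ± 0.27, with an adjusted p of 0.0825. Cyp3a13, an enzyme of the same subfamily prominent in intestine, read 5465 and 6863 in vehicle, 3484 and 4122 with dexamethasone, 5695 with DBZ, and 5206 and 4946 in the combination group. Its fall with dexamethasone was the smallest of the 15 (-0.69 ± 0.19, adjusted p = 0.0409). That call was lost without either vehicle array or either dexamethasone array (adjusted p = 0.0562 to 0.262). The remaining Cyp3a probe sets, Cyp3a16 and Cyp3a44, were below the filter with no signal above 74.5.

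The Cyp3a11 promoter is shown because it holds 2 of the searched nuclear receptor motifs. These are the 250 bases before the start of the gene on the minus strand, chr5:145879855-145880104 in GRCm38.p6 (RefSeq), and capitals mark AGGTCA, the half-site of nuclear receptors, and CAAAGTCCA, a site of the HNF4 type.
Cyp3a11: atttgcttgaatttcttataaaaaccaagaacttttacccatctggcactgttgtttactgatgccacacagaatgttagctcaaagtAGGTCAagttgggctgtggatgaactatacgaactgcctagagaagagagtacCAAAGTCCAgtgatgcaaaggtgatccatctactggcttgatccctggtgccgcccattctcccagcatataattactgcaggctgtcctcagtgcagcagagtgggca
Both strands were searched, and the 2 marked matches do not overlap. The promoter of Cyp2c70, a gene below the filter, holds the same 2 motifs closer together. Promoters were matched for 45 of the 62 genes and 22 of the 27 tested ones. CAAAGTCCA was found in 6 of 52 P450 promoters (Cyp2c65, Cyp2c68, Cyp2c70, Cyp3a11, Cyp3a16 and Cyp8b1) and in 0.384% of all 32851 promoters of this length, and AGGTCA in 13 of 52 against 14%. Of the 26 promoters of tested P450 genes, 3 held CAAAGTCCA and 4 held AGGTCA. Some genes have several starts with nearly the same bases, so the promoters counted are not independent. A match is a run of letters and not evidence that a factor binds. Signals of Hnf4a, which encodes the factor named by the longer motif, were 2439 to 2717 in vehicle and 3322 to 3765 in the treated arrays, and its change was not past the threshold in any comparison with vehicle.

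Cyp2b10, the classical target of CAR, was read by 3 tested probe sets, all of which fell with dexamethasone. The probe set 1425645_s_at read 4272 and 4433 in vehicle, 1174 and 1344 with dexamethasone, 4279 with DBZ, and 3289 and 2965 in the combination group. The DBZ array lay between the vehicle arrays, and both combination arrays lay between the dexamethasone and vehicle arrays. For 1422257_s_at the signals were 3251 and 3332 in vehicle, 905 and 1059 with dexamethasone, 2670 with DBZ, and 2300 and 1992 in the combination group. For 1451787_at they were 1997 and 2550, then 412 and 466, 1943, and 2083 and 1082 in the same order of groups. The dexamethasone arrays were the lowest in all 3 probe sets. The falls with dexamethasone were 1.78 ± 0.17, 1.74 ± 0.17 and 2.33 ± 0.28 respectively (limma adjusted p = 0.000426, 0.000501 and 0.00119). In the combination against vehicle the changes ran from -0.62 to -0.48, with adjusted p from 0.0545 to 0.227. The names of the first 2 probe sets end in _s_at, which marks probes that can read related transcripts, so signal from other Cyp2b genes cannot be separated. Cyp2b9, Cyp2b13 and Cyp2b19 had dim probe sets of their own, with no signal above 57.9.

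The Cyp2c subfamily, which oxidises drugs and turns arachidonic acid into signalling epoxides, had 6 tested genes, of which 5 fell with dexamethasone and 3 each with DBZ and with the combination. Cyp2c29 had the largest change of all P450s. Its signals were 1599 and 2567 in vehicle, 15.1 and 8.22 with dexamethasone, 237 with DBZ, and 295 and 81.3 in the combination group. The dexamethasone arrays lay near the added constant of 12.33, the DBZ and combination arrays overlapped, and the vehicle arrays stood above all others. The changes were -6.42 ± 0.46 with dexamethasone, -3.03 ± 0.57 with DBZ and -3.59 ± 0.46 with the combination (limma adjusted p = 0.000124, 0.0152 and 0.00325). Because the dexamethasone signal is near background, the size depends on the constant: with a constant of 1 the first value for Cyp2c29 was -7.38, and with 4 times the constant -5.09. The DBZ call of Cyp2c29 was lost without vehicle replicate 2 (adjusted p = 0.0598).

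Cyp2c65, an arachidonic acid oxidising enzyme of the gut, read 5297 and 4845 in vehicle, 1874 and 949 with dexamethasone, 1539 with DBZ, and 2429 and 2077 in the combination group. Its only probe set ends in _s_at, so signal from related Cyp2c genes cannot be separated. Every treated array was below both vehicle arrays, and the combination arrays were above those of either agent alone. The falls were 1.92 ± 0.27, 1.71 ± 0.34 and 1.17 ± 0.27 with dexamethasone, DBZ and the combination (limma adjusted p = 0.00306, 0.0177 and 0.0321). The DBZ call was lost without vehicle replicate 1 (adjusted p = 0.0612). The combination call was lost without any 1 array of either group, with adjusted p from 0.0979 to 0.176. Cyp2c38 read 160 and 193 in vehicle, 30.9 and 41.0 with dexamethasone, 54.9 with DBZ, and 32.2 and 48.1 in the combination group. It fell by 1.97 ± 0.28, 1.48 ± 0.35 and 1.86 ± 0.28 (adjusted p = 0.00316, 0.032 and 0.00626), and here the combination arrays overlapped those of dexamethasone. Leaving out either vehicle array ended its DBZ call (adjusted p = 0.0642 and 0.0905), and leaving out combination replicate 1 ended its combination call (0.0588).

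Cyp2c68 and Cyp2c23 changed less. Signals of Cyp2c68 were 1394 and 1786 in vehicle, 597 and 857 with dexamethasone, 896 with DBZ, and 1052 and 965 in the combination group. Signals of Cyp2c23, an epoxygenase whose only probe set also ends in _s_at, were 151 and 186, then 67.3 and 89.9, 80.6, and 138 and 118. Vehicle was the highest group for both genes. Only the dexamethasone falls were called (-1.13 ± 0.21, limma adjusted p = 0.00885, and -0.996 ± 0.24, 0.0258), and both were lost without vehicle replicate 2 or dexamethasone replicate 1 (adjusted p = 0.0612 to 0.169). Cyp2c37, Cyp2c39, Cyp2c50, Cyp2c54 and Cyp2c70 were below the filter.

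Cyp2c55, Cyp2c65, Cyp2c66, Cyp2c29, Cyp2c39 and Cyp2c38 lie side by side on chromosome 19. The promoters of Cyp2c29 and Cyp2c65, the members of this run called in the most comparisons that also have a marked motif, are shown to set them beside each other. They are the 250 bases before each start on the plus strand, chr19:39286835-39287084 and chr19:39060756-39061005 in GRCm38.p6 (RefSeq), with the motifs defined above in capitals.
Cyp2c29: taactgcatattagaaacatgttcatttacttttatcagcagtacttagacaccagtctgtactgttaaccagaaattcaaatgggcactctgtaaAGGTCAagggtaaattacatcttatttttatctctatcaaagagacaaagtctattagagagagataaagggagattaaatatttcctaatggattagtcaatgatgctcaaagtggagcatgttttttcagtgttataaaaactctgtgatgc
Cyp2c65: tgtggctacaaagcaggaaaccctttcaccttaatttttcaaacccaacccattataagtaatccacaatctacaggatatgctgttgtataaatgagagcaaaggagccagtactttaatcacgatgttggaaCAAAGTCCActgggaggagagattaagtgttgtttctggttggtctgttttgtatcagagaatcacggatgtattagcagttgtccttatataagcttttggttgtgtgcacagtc
The first holds AGGTCA from -154 to -149 before the start, and the second holds CAAAGTCCA from -116 to -108. Neither holds AGAACA, the half-site of the glucocorticoid receptor, on either strand, a motif found in 10 of 52 P450 promoters and in 16.1% of all promoters. That these letters are not in the window says nothing about the receptor.

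Cyp2c55, the neighbour of Cyp2c65, differed from the other tested genes of the run in its dexamethasone arrays. Its signals were 2802 and 1022 in vehicle, 6299 and 149 with dexamethasone, 359 with DBZ, and 139 and 116 in the combination group. The DBZ and combination arrays lay below both vehicle arrays, as for Cyp2c65, Cyp2c29 and Cyp2c38. Dexamethasone replicate 1 was the highest array and replicate 2 among the lowest, so the change of -0.76 ± 1.25 has no settled direction: without dexamethasone replicate 2 it was 1.89, and without replicate 1 -3.40. Cyp2c55 is known to be abundant in colon. Cyp2d34 showed the same split, with 26.8 and 43.7 in vehicle, 216 and 10.1 with dexamethasone, 15.2 with DBZ, and 19.5 and 32.9 in the combination group. Cyp2d10, below the filter, read 72.7 in dexamethasone replicate 1 and 2.59 to 17.9 elsewhere. Cyp2e1, which oxidises ethanol and small solvents, read 276 in that array, 86.6 in the other dexamethasone array, 64.6 and 39.1 in vehicle, 147 with DBZ, and 156 and 74.3 in the combination group. These 4 genes were grouped after their values were seen. None was called in any comparison; Cyp2e1 stood at 1.42 ± 0.48 with dexamethasone (limma adjusted p = 0.0869).

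**Figure D3:**
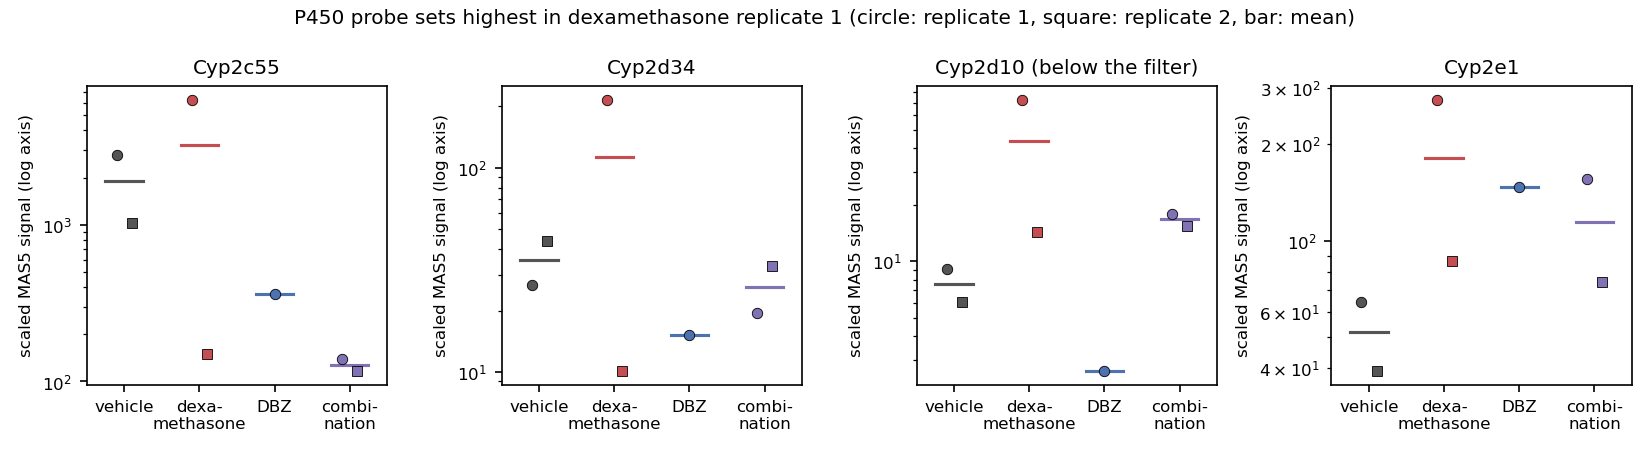
Scaled signal (log axis) of Cyp2c55, Cyp2d34, Cyp2d10 (below the filter) and Cyp2e1 in each array by group; circles are replicate 1 (and the single DBZ array), squares replicate 2, bars the group mean. In each panel the highest point is dexamethasone replicate 1, at 6299, 216, 72.7 and 276.

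The Cyp2j subfamily makes epoxides of arachidonic acid, and both tested genes, neighbours on chromosome 4, fell with dexamethasone. Cyp2j6 read 1629 and 2207 in vehicle, 658 and 779 with dexamethasone, 1602 with DBZ, and 3244 and 1882 in the combination group. The dexamethasone arrays were below all others, and the combination arrays reached or passed the vehicle level. Cyp2j9 read 140 and 169 in vehicle, 45.3 and 53.6 with dexamethasone, 86.0 with DBZ, and 99.5 and 68.9 in the combination group, so that its combination arrays stayed below vehicle. The falls were 1.39 ± 0.26 and 1.43 ± 0.26 (limma adjusted p = 0.00886 and 0.00805), and both calls were lost without vehicle replicate 2 or dexamethasone replicate 1 (adjusted p = 0.0547 to 0.0688). In the combination against vehicle the values were 0.38 ± 0.26 for Cyp2j6 and -0.80 ± 0.26 for Cyp2j9, neither past the threshold.

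Cyp27a1, the mitochondrial sterol hydroxylase that starts the alternative route to bile acids, was the only tested member of its family. Signals were 1422 and 1729 in vehicle, 574 and 517 with dexamethasone, 1497 with DBZ, and 1098 and 698 in the combination group. The DBZ array was within the vehicle range and the combination arrays lay between vehicle and dexamethasone. It fell by 1.5 ± 0.22 with dexamethasone (2.84-fold, limma adjusted p = 0.00338) and stood at -0.83 ± 0.22 with the combination (adjusted p = 0.0519).

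Cyp1a1, which oxidises polycyclic aromatic compounds and is the textbook target of the aryl hydrocarbon receptor, fell in all 3 treated groups. It read 253 and 167 in vehicle, 33.7 and 42.2 with dexamethasone, 29.2 with DBZ, and 96.1 and 40.4 in the combination group. All 5 treated arrays were below both vehicle arrays. The falls were 2.12 ± 0.36 with dexamethasone, 2.39 ± 0.45 with DBZ and 1.53 ± 0.36 with the combination (limma adjusted p = 0.00636, 0.0149 and 0.0344). Without vehicle replicate 1 the DBZ call was lost (adjusted p = 0.0589), and without vehicle replicate 1, vehicle replicate 2 or combination replicate 2 the combination call was lost (0.161, 0.0696 and 0.197). The promoter is shown for the core of the receptor's binding site, GCGTG, in capitals. The 250 bases lie before the start on the plus strand, chr9:57697363-57697612 in GRCm38.p6 (RefSeq).
Cyp1a1: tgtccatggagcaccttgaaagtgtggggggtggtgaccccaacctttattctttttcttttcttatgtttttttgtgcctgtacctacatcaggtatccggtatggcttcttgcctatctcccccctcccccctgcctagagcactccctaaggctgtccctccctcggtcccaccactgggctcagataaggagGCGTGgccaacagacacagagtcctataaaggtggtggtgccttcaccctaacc
GCGTG was found in 11 of 52 P450 promoters and in 28.2% of all promoters, counting both strands. Cyp1b1, the other tested member of the family, had changes of 0.19, 0.74 and 0.25 in the 3 treated groups, none past the threshold, and Cyp1a2 was below the filter.

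The Cyp4 family, which hydroxylates the far end of fatty acids and eicosanoids, had 1 call in the 3 comparisons with vehicle. Of 7 tested probe sets, 5 lay above 0 with dexamethasone, 6 with DBZ and 7 with the combination (0 in each on the signals as deposited). The call was Cyp4b1, an enzyme that acts on fatty acids and foreign compounds. Cyp4b1 read 2237 and 2712 in vehicle, 2655 and 3575 with dexamethasone, 4185 with DBZ, and 4546 and 4979 in the combination group. The dexamethasone arrays overlapped vehicle, and the DBZ and combination arrays were above both. It rose by 0.95 ± 0.20 with the combination (limma adjusted p = 0.0207), and stood at 0.76 ± 0.24 with DBZ (0.0817). The call was lost without any 1 vehicle or combination array (adjusted p = 0.0553 to 0.111). On the signals as deposited Cyp4b1 stood at -0.050 where the median over all probe sets was -0.99. Cyp4f14, which inactivates leukotrienes, had changes of 0.08, 0.59 and 0.33 in the dexamethasone, DBZ and combination groups. Cyp4v3, a fatty acid hydroxylase, had -0.46, -0.31 and 0.12 at its first probe set, 1417070_at, and -0.35, 0.19 and 0.19 at 1417071_s_at. Cyp4f16 (1417277_at) stood at 0.89 ± 0.26 with dexamethasone (adjusted p = 0.0535). None of these passed.

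Cyp7b1, an oxysterol hydroxylase, was dim in vehicle. The probe set 1421074_at read 22.3 and 25.3 in vehicle, 49.1 and 75.4 with dexamethasone, 93.2 with DBZ, and 64.8 and 81.1 in the combination group. Every treated array was above both vehicle arrays. Its mean signal was 23.8 over the vehicle arrays, under the filter of 38.84, and 72.7 over the treated arrays, so that it was tested only because of the groups in which it was high. The values are therefore a description: 1.55 ± 0.37 with DBZ, 1.23 ± 0.30 with the combination and 1.02 ± 0.30 with dexamethasone (limma adjusted p = 0.0322, 0.0359 and 0.0529). The vehicle signals cannot be told apart from background. The second probe set, 1421075_s_at, gave 0.91, 0.996 and 0.81 with dexamethasone, DBZ and the combination, none past the threshold. Both calls at the first probe set were lost without either vehicle array or either combination array (adjusted p = 0.0577 to 0.199), and on the signals as deposited (0.0792 and 0.158). Cyp39a1, also an oxysterol hydroxylase, stood at 0.54 ± 0.33 with dexamethasone and -0.77 ± 0.40 with DBZ, neither called. Both Cyp7a1 probe sets, for the rate-limiting enzyme of bile acid synthesis in liver, were below the filter with no signal above 32.1.

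Among the other Cyp2 genes, Cyp2s1, a P450 of epithelial tissues outside the liver, stood at 0.61 ± 0.18 with dexamethasone (limma adjusted p = 0.0583). Cyp2d22, a member of a drug-clearing subfamily, stood at -0.48 and -0.46 at its probe sets, and Cyp2d26 at -0.42. No probe set passed the filter for the steroid-making enzymes Cyp11a1, Cyp11b2, Cyp17a1 and Cyp21a1, for Cyp24a1 and Cyp27b1 of vitamin D metabolism, for Cyp26a1, which degrades retinoic acid, or for Cyp8b1 and Cyp46a1, which act on sterols. The highest signal of any of these in any array was 50.2, for Cyp21a1. The files hold no detection calls, so signals at this level cannot be told apart from background.

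**Figure D4:**
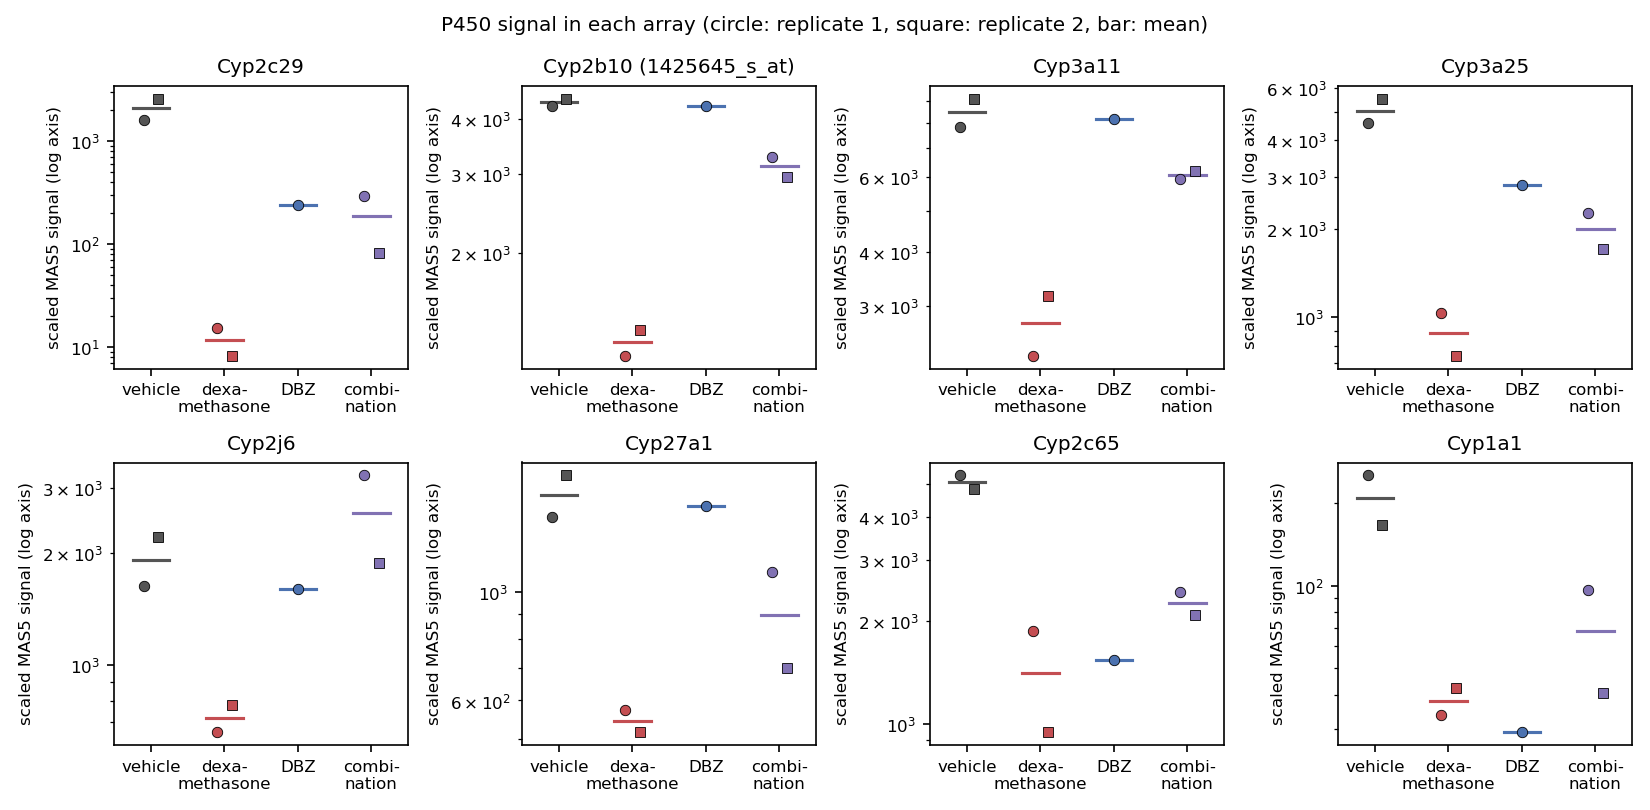
Scaled signal (log axes, which do not start at 0 and differ by panel) of Cyp2c29, Cyp2b10 (1425645_s_at), Cyp3a11, Cyp3a25, Cyp2j6, Cyp27a1, Cyp2c65 and Cyp1a1 in each array by group; circles are replicate 1 (and the single DBZ array), squares replicate 2, bars the group mean. The dexamethasone arrays are the lowest in the panels of Cyp2c29, Cyp2b10, Cyp3a11, Cyp3a25, Cyp2j6 and Cyp27a1, whereas for Cyp1a1 the DBZ array, at 29.2, is the lowest.

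When DBZ was added to dexamethasone, 24 of the 33 P450 probe sets had a higher level than with dexamethasone alone, with a median log2 change of 0.52 against -0.06 over all probe sets. Only 1 was called, Cyp2b10 (1425645_s_at), which rose by 1.31 ± 0.17 (limma adjusted p = 0.0499). That is at the edge of the threshold, and without dexamethasone replicate 1, combination replicate 1 or combination replicate 2 its adjusted p was 0.269, 0.602 and 0.127. Over all probe sets 0.0293% passed in this comparison, 0.0220% higher and 0.00733% lower. At an unadjusted p under 0.05 stood 22 P450 probe sets, and 1278 probe sets in all. Both combination arrays were above both dexamethasone arrays in 19 of the P450 probe sets and below in 3, where 16.9% and 26.8% of all probe sets did so. Values short of the threshold were 1.12 ± 0.17 and 1.75 ± 0.28 at the other Cyp2b10 probe sets, 1.77 ± 0.26 for Cyp2j6, 2.83 ± 0.46 for Cyp2c29, 1.16 ± 0.20 for Cyp3a11 and 1.16 ± 0.22 for Cyp3a25 (adjusted p = 0.0633, 0.0737, 0.0633, 0.0876, 0.104 and 0.13). With any 1 array left out, the change of Cyp2b10 at 1425645_s_at ran from 1.21 to 1.40.

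The interaction asks whether the effect of DBZ differed in the presence of dexamethasone: it is the change from dexamethasone to the combination minus the change from vehicle to DBZ. A positive value means that the combination was higher than the sum of both single effects. It was called for 9 P450 probe sets of 7 genes, all positive, where 4.0% of all probe sets passed (2.07% positive and 1.93% negative). The median was 0.74 against 0.00 over all probe sets. An unadjusted limma p under 0.05 was found for 20 P450 probe sets, and for 2800 of all 13638 probe sets. Cyp2c29 had 5.87 ± 0.73 (limma adjusted p = 0.00483), Cyp1a1 2.99 ± 0.58 (0.0243), Cyp2c65 2.46 ± 0.43 (0.0181), Cyp2j6 2.01 ± 0.41 (0.0286) and Cyp3a25 2.00 ± 0.34 (0.0171). The Cyp2b10 probe sets had 1.42, 1.33 and 1.96 (adjusted p = 0.0218, 0.0256 and 0.039), and Cyp2c23 had 1.59 ± 0.38 (0.0478). Cyp3a11 stood at 1.21 ± 0.32, with an adjusted p of 0.0646. For Cyp2c29 and Cyp1a1 the sum of both single effects lay below the level of the added constant (1.54 and 3.25 against 3.62 on the log2 scale), which no signal can reach. A combination signal of 0 would already have given interactions of 2.08 and 0.37. Given the other groups, the positive sign of both values was therefore fixed by the constant. Only the excess over 2.08 and 0.37 is measured. With a constant of 1 the interactions of Cyp2c29 and Cyp1a1 were 6.76 and 3.49, and with 4 times the constant 4.66 and 2.09. The other 7 calls had sums above the level of the constant.

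The called genes had 2 shapes in their signals. For Cyp1a1, Cyp2c65, Cyp2c29 and Cyp2c23 each agent alone went with lower signals and the combination was no lower than the lower of them. For Cyp2b10 and Cyp2j6, dexamethasone alone was low, DBZ alone was near vehicle, and the combination arrays were at or near the vehicle level or between. Cyp3a25 lay between these shapes, with its DBZ array between vehicle and combination. With any 1 array left out, the interaction of Cyp2c29 ran from 5.01 to 6.72. Its positive sign was fixed by the constant, so a call that held in each such fit is no support for it. No other of the 9 calls held in all of these fits. The single DBZ array enters every interaction value, and it had the highest 3′ to 5′ ratios; its part in them was not tested.

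**Figure D5:**
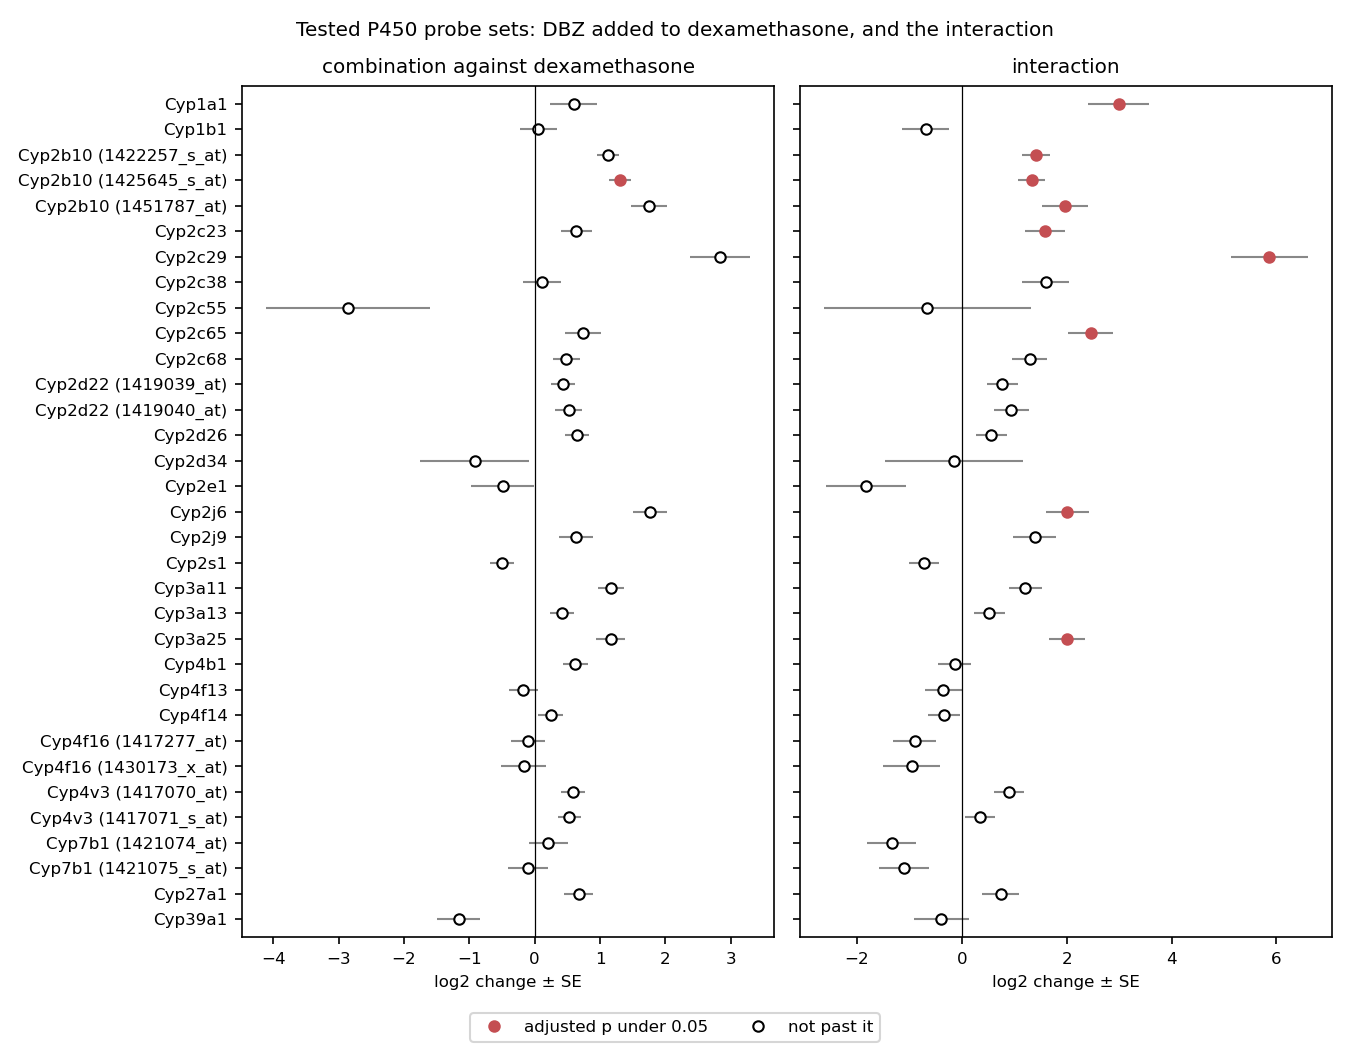
log2 change ± SE (horizontal axis) of the 33 tested P450 probe sets, ordered by family, for the combination against dexamethasone (left) and the interaction (right); filled points have an adjusted p under 0.05. On the left 1 point is filled, at 1.31, and on the right 9, from 1.33 to 5.87, all to the right of 0.

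Adding dexamethasone to DBZ gave 0 called P450 probe sets in limma, where 0.330% of all probe sets passed. An unadjusted limma p under 0.05 was found for 2 of the 33 P450 probe sets, and for 1683 of all 13638 probe sets. The median was -0.14 against 0.01. Cyp2c29 stood at -0.56 ± 0.57, Cyp3a11 at -0.43 ± 0.25 and Cyp1a1 at 0.87 ± 0.45. It rests on a single DBZ array, and the missing calls do not show that the levels were alike.

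Genes that supply P450 enzymes with electrons were also counted. Of 8 genes on this list, 6 had a probe set with that symbol alone. The reductase genes Por and Fdxr had none. Of 6 tested partners, 4 fell with dexamethasone and 0 rose, where 4.82% of all probe sets fell and 7.22% rose. These were the cytochrome b5 gene Cyb5a (-0.78 ± 0.18, limma adjusted p = 0.0237), its reductase Cyb5r3 (-0.79 ± 0.17, 0.0153), and the haem-binding partners Pgrmc1 (-0.73 ± 0.19, 0.0352) and Pgrmc2 (-1.42 ± 0.16, 0.00106). Pgrmc2 read 1067 and 1025 in vehicle, 412 and 357 with dexamethasone, 482 with DBZ, and 619 and 604 in the combination group. It fell in all 3 treated groups and had a called interaction of 1.75 ± 0.26. With DBZ it was the 1 call of 6, and with the combination it was called together with the mitochondrial ferredoxin Fdx1 (-0.69 ± 0.16). Over all probe sets 4.60% fell with DBZ and 3.06% with the combination. Of 7 genes of haem synthesis and breakdown, 1 fell with dexamethasone, Cpox (-1.19 ± 0.28, adjusted p = 0.0263), while DBZ and the combination gave 0 limma calls. With DBZ and the combination, 3 and 1 of these genes had an unadjusted limma p under 0.05, as did 3600 and 3294 of all 13638 probe sets. Ppox, the next enzyme of that route, stood at -0.86 with dexamethasone and Alas1, its first enzyme, at -0.19.

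Few receptors that set P450 transcription were called. Nr1i2, which encodes PXR, read 816 and 598 in vehicle, 183 and 194 with dexamethasone, 360 with DBZ, and 338 and 282 in the combination group. It fell in all 3 treated groups, by 1.83 ± 0.20, 0.93 ± 0.25 and 1.15 ± 0.20 (limma adjusted p = 0.00093, 0.0476 and 0.011), and its interaction of 1.61 ± 0.32 was called. Nr1i3, which encodes CAR, read 347 and 461 in vehicle, 226 and 225 with dexamethasone, 277 with DBZ, and 358 and 406 in the combination group. It fell with dexamethasone (-0.79 ± 0.19, adjusted p = 0.0288), and its combination arrays lay within the vehicle range. Of 18 tested receptors and factors, 2 fell and 1 rose with dexamethasone, 1 fell and 2 rose with DBZ, and 1 fell and 1 rose with the combination, counts to be read against the 12.0%, 8.35% and 7.44% of all probe sets called. The risers were Nr1h4, the bile acid receptor, with dexamethasone (1.02 ± 0.20) and DBZ (1.51 ± 0.25), whose interaction was called and negative (-2.15 ± 0.32), and Rora with DBZ (1.25 ± 0.33) and the combination (1.09 ± 0.27). Rora read 37.7 and 28.3 in vehicle, under the filter of 38.84. It was tested only because of its treated arrays, so its values are a description. The glucocorticoid receptor gene Nr3c1 stood at -0.06, -0.63 and 0.27 with dexamethasone, DBZ and the combination, none past the threshold, and the aryl hydrocarbon receptor gene Ahr at -0.44, -0.27 and -0.13.

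Targets of these receptors outside the P450s did not all go the way of the P450s. Counts in these small lists are to be read against the shares of all probe sets called. Those shares were 12.0% with dexamethasone (7.22% higher), 8.35% with DBZ and 7.44% with the combination. Of 5 tested PXR and CAR targets, Gstm1, a glutathione transferase, fell in all 3 treated groups (-1.66, -1.23 and -1.34, limma adjusted p = 0.00277, 0.0308 and 0.0101) and Abcb1a, a drug efflux pump, rose in all 3 (0.76, 0.91 and 0.75, adjusted p = 0.0308, 0.0424 and 0.0419). The comparisons share the vehicle arrays. The others were not called: Ces2a, an esterase, had -0.22, 0.82 and 0.51, and the efflux pumps Abcc2 and Abcc3 had -0.12, 0.02 and -0.00, and -0.10, -1.81 and -1.23. Of 3 tested aryl hydrocarbon receptor targets, Nqo1 fell with DBZ (-1.22 ± 0.32, adjusted p = 0.0457), and Tiparp (0.42) and Nfe2l2 (-0.65) were not called. Among 7 steroid synthesis partners, 3 rose with dexamethasone: Tspo (0.92 ± 0.21), Hsd11b2 (1.58 ± 0.40) and Hsd17b2 (1.13 ± 0.31). Of 4 retinoid partners, Aldh1a1 fell with dexamethasone (-0.78 ± 0.16), where Aldh1a2 stood at 0.68, Aldh1a3 at -0.31 and Dhrs3 at -0.08. Of vitamin D targets only the calcium binding protein S100g was tested. It read 125 and 187 in vehicle, 686 and 61.4 with dexamethasone, 3.81 with DBZ, and 1.33 and 1.65 in the combination group. The dexamethasone arrays lay on either side of vehicle, and the DBZ and combination signals were below the constant of 12.33, which sets the size of the log2 values. It fell with the combination (-3.58 ± 0.79, limma adjusted p = 0.0253) and stood at -3.36 ± 0.97 with DBZ (0.0601).

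Some markers of position and of cell types also differed from vehicle, while the enterocyte list had 0 calls against vehicle. Over all probe sets 4.82% fell and 7.22% rose with dexamethasone, 4.60% and 3.75% with DBZ, and 3.06% and 4.38% with the combination. Of all interactions, 2.07% were called positive and 1.93% negative. Of 7 tested proximal intestine markers, 5 fell with dexamethasone (Gata4, Slc46a1, Fabp1, Gip and Cck), 3 with DBZ and 2 with the combination, and the same 5 had a called, positive interaction; the list medians were -1.29, -0.57 and -0.48 against vehicle and 1.77 for the interaction. Slc46a1, the proximal folate transporter, read 2200 and 3094 in vehicle, 277 and 246 with dexamethasone, 522 with DBZ, and 837 and 409 in the combination group. Of 5 ileum markers, 3 rose with dexamethasone, 4 with DBZ and 2 with the combination, and 4 had a called, negative interaction. Fabp6, Slc10a2 (1.70 and 7.09 in vehicle) and Pyy (39.1 and 16.8) had vehicle means under the filter of 38.84. They were tested only because of their treated arrays, so their values are a description. They include every ileum riser with dexamethasone and with the combination. Vehicle signals of Fabp6 and Slc10a2 lay below the constant of 12.33, which sets the size of their log2 values. Smooth muscle markers rose in 7 of 8 with dexamethasone and 4 of 8 each with DBZ and the combination, with summed signals of 8558 to 12120 in vehicle and 18378 to 27728 in treated arrays. Fibroblast markers rose in 6, 4 and 4 of 7, with sums of 2974 to 4795 in vehicle and 7047 to 8511 in treated arrays. The T cell list, whose CD3 genes were below the filter, summed to 1350 to 1633 in vehicle and 449 to 564 in treated arrays. The part of position along the gut and of tissue composition in the P450 values was not tested. Hepatocyte markers summed to 149 to 231 in vehicle and 55.9 to 101 in treated arrays, and the defining marker Alb read 2.07 to 27.8, at or near the constant of 12.33. These are bulk samples, in which fewer cells of a type and less RNA per cell cannot be told apart.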

How the data were processed

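Total RNA of small intestine was hybridised as biotin-labelled cRNA to Affymetrix arrays. The values are signal intensities as deposited by the authors, 1 per probe set, made with MAS5 per the submitters' processing notes; the version, scaling target and detection calls are not given in the sources used here. Both DBZ columns entered as 1 array, assumed to vary like the other groups.

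Arrays were brought to one trimmed mean, 250, trimming 2% at each end, and turned into log2(signal + 12.33), the constant being the pooled 20th percentile. Folds between 2 groups therefore understate the change of dim genes, whereas an interaction of dim genes can be raised by the constant. The filter was the pooled 40th percentile of mean signal, 38.84, and 64 control probe sets were left out. Symbols came from the platform annotation (20393 probe sets with 1 symbol, 691 with several, 1606 with none). limma 3.58.1 in R 4.3.3 was fitted to 4 group means with an intensity trend (residual degrees of freedom 3, prior 6.83), with 2-sided moderated tests and log2 changes given ± SE. The design text gives 2 mice a group, and the labels give only replicate numbers, so the spread may be in part technical.

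In a simulation over 13638 probe sets, 200 of them altered, the fit found 90%, 99% and 100% of those changed by 2 on the log2 scale (DBZ, dexamethasone and combination, each against vehicle). At 1 on that scale it found 27%, 66% and 62%, and 9, 12 and 18 unaltered probe sets passed. The simulated arrays had independent normal noise with the spread estimated by the fit itself. They held no offset of the vehicle arrays, no difference in tissue composition and no separate spread for DBZ. The rates therefore apply to such arrays only.

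The genes named are P450s past the threshold, a fixed set of well-known P450s, up to 4 genes of each list by smallest p, and every gene of lists with 5 or fewer tested. Cyp2c55, Cyp2d10, Cyp2d26, Cyp2d34, Cyp4f16, Pgrmc1, Hnf4a, Nr3c1 and Ahr were added after their values were seen. The members and gene lists were chosen with earlier results of these data known. Promoters are from RefSeq on GRCm38.p6. Alternatives changed the scaling, constant, filter, variance model, probe set choice and replicate term, or left out 1 array. Fits without the DBZ array and without both vehicle arrays were added after the data were seen.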

Additional observations from a re-analysis of the deposited data

Results flagged for a closer look

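Each of the following differed in its response to DBZ between mice with and without dexamethasone, by the interaction term of the limma fit. The log2 values were 5.87 for Cyp2c29, 2.99 for Cyp1a1, 2.46 for Cyp2c65, 2.01 for Cyp2j6 and 2.00 for Cyp3a25. Cyp2b10 gave 1.42 at 1422257_s_at, 1.33 at 1425645_s_at and 1.96 at 1451787_at, and Cyp2c23 gave 1.59. All were positive. For Cyp2c29 and Cyp1a1 the sum of the single effects lay below the level of the added constant. Of these values 2.08 and 0.37, and with them the positive sign, were therefore fixed by it. They rest on 7 arrays, 1 of them for DBZ, and share it and the vehicle arrays, so they are not independent of each other. No group was large enough to look for single arrays far from the rest.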

How the results depend on the processing

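Among the 37 P450 calls, 36 were kept with quantile normalization, 36 with a constant of 1, 35 with 4 times the constant, 36 with robust eBayes, 24 of 37 without the filter and 25 without the intensity trend. Without the DBZ array all 23 calls that could be refitted were kept. The ranges that follow are from fits with 1 array left out, in which the number of all probe sets called also changed. The count in dexamethasone against vehicle was 10 to 17 with 1 array left out, and 10 of its 15 calls held in every such fit. The other leave-one-out ranges were 2 to 6 in DBZ against vehicle (0 of 5 calls held throughout), 2 to 8 in the combination against vehicle (1 of 7), 0 to 6 in the combination against dexamethasone, 0 to 0 in the combination against DBZ and 1 to 12 in the interaction.

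On the signals as deposited, where vehicle arrays are brighter as a whole, the counts were 23 in DBZ against vehicle, 23 with dexamethasone, 24 with the combination, 21 in the interaction and 0 in the combination against dexamethasone; of all probe sets 68.6%, 74.6%, 79.5%, 47.7% and 0% were called there. Without the filter, where all 75 P450 probe sets were tested, they were 3, 4 and 4 in DBZ against vehicle, the combination against vehicle and the interaction. Of all 22626 probe sets in these fits, 273, 381 and 127 were called higher and 265, 242 and 106 lower. The stricter filter gave 2 in DBZ against vehicle, since Cyp7b1, Cyp1a1 and Cyp2c38 lay below its mean of 111.4 and were not tested. The calls of Cyp2c29 and Cyp2c65 were kept there. Fits of only the groups compared gave 10 in DBZ against vehicle, where 638 of all 13638 probe sets were called higher and 800 lower. In the combination against DBZ they gave 1, where 150 of all probe sets were called higher and 49 lower. Without the intensity trend the combination against vehicle gave 4 and the interaction 2, and without probe sets ending in _x_at or _s_at the interaction gave 5, since some calls are such probe sets. The 1 call in the combination against dexamethasone went to 0 with either other constant, without the filter, with the stricter filter, without the trend and with the replicate block. The fit without _x_at and _s_at probe sets leaves out the called probe set, 1425645_s_at, so the 0 there says nothing about its call. The cause of the other differences was not tested.

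On the signals as deposited 0 of 7 Cyp4 probe sets lay above 0 in any comparison with vehicle. Signs that turned together with a call on either scaling are these. In DBZ against vehicle these were Cyp4v3 -0.81, Cyp4f13 -0.79, Cyp2s1 -0.76 and Cyp2d26 -0.91. With dexamethasone they were Cyp4b1 -0.67, Cyp4f13 -0.76 and Cyp4f14 -0.91, and in the interaction Cyp4b1 0.86. With the combination they were Cyp4b1 -0.050, Cyp4v3 -0.88 and -0.81, Cyp4f13 -0.93, Cyp2d22 -0.90, Cyp4f14 -0.66, Cyp2s1 -0.87 and Cyp2d26 -0.78. Cyp2c55 with dexamethasone ran from -3.40 without dexamethasone replicate 1 to 1.89 without replicate 2.

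Replicate numbers did not pair the samples: same-numbered deviations correlated at 0.049, -0.122 and 0.115. With the replicate block 34 of 37 calls were kept, and the counts against vehicle were 5 for DBZ, 16 for dexamethasone and 7 for the combination, with 8 in the interaction. Precision is limited by 7 arrays and, for Cyp2c29, Cyp7b1 and other dim probe sets, by signals near the added constant.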
